A study of Mus musculus with 11 samples.

Results

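The immediate early genes and the heat shock genes that respond to handling and dissociation of cells were followed here through RNA sequencing of sorted mouse bone marrow cells. The set holds 35 genes, of 16576 gene identifiers listed in any of 3 deposited tables. They were chosen by name, for their known rapid induction, and the rule used no measured value. Earlier results of these data were known when the choice was made, so it was not blind to them. Of the 35, 31 are immediate early genes and 4 are heat shock genes (Hspa1a, Hspa1b, Hsph1 and Dnajb1), and both classes were described apart. All 35 are in every table, and all 35 passed the filter on low counts in every comparison.

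Immediate early genes are transcribed within minutes of a stimulus, with no need for new protein, because the factors that switch them on (serum response factor with its partners, and CREB) already sit in the cell and are activated by kinases such as ERK, JNK and p38. Many encode transcription factors, among them the AP-1 subunits of the Fos and Jun families, and others encode phosphatases and RNA-binding proteins that shut the response down. Heat shock genes are switched on by heat shock factor when proteins unfold. Enzymatic digestion, warming and sorting of solid tissue are widely known to raise both classes in the cells being isolated. How the marrow was dissociated, and for how long, is not given in the sources used here.

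PolyA RNA came from bone marrow cells sorted by flow cytometry, and all groups other than the knockout are labelled wild type. The adult group, 3 samples, was sorted as PDGFRa+CD51+. The perinatal group, called postnatal in the sort labels, held 3 samples sorted as PDGFRa+Sca1+, whose titles call them Cre-negative, and 2 further wild-type samples, numbered 2 and 3, were sorted as PDGFRa+Sca1-. The knockout group, 3 samples sorted as PDGFRa+Sca1+, was deleted for Igf1r, the receptor of insulin-like growth factor 1, and its titles call it Cre-positive. Cre and the deletion therefore cannot be told apart. Age and sort gate also change together between the adult and perinatal groups, so their parts cannot be told apart. No age in days or weeks, sex, strain or Cre driver is given in the sources used here, nor whether each sample is a separate animal. The p-values cover the spread among these samples alone, and that spread may be technical.

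Libraries held 13412316 to 23782217 counts, and levels are given as CPM, the counts of a gene scaled to the library's total. A floor of 3 counts equals 0.126 to 0.224 CPM. Igf1r lay at 8.20, 4.22 and 3.24 CPM in the knockout libraries and at 29.5, 31.7 and 30.7 CPM in their controls. Ly6a, which encodes Sca1, went against the labels: it lay at 666 and 659 CPM in the libraries labelled Sca1-negative but at 13.8 and 10.03 CPM in the libraries labelled Sca1-positive 2 and 3. Those same 2 libraries serve as perinatal 2 and 3 in the age table and as controls 2 and 3 in the knockout table, while control 1 held 425 CPM and the knockouts 768.5, 682 and 930.3 CPM. Ly6a is not listed in the age table. The library numbered 1 differs between the age table and the knockout table, since 1.72% of genes and 0 of the 35 members had equal counts there. The 3 comparisons therefore share control libraries, and their results are not independent of each other. In the age and knockout comparisons, calls and values that moved by over 1.5-fold without libraries 2 and 3 are given both ways, whereas the Sca1-positive group of the Sca1 comparison consists of these libraries alone and no value without them is possible. Exons of 8 members overlap a gene on the other strand (Fosl1, Jun, Junb, Jund, Dusp1, Dusp5, Zfp36 and Hspa1a), and since the strand setting of the counting is not given in the sources used here, reads from such a neighbour cannot be told apart from theirs.

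Marker lists of other cell types were summed in each library. The 15 macrophage markers summed to 27330 to 30970 CPM in the adult libraries and to 30.6 to 41.3 CPM in the perinatal ones, and 15 of 15 were higher in the adult group. Of 10 stroma markers, 6 were lower in adult libraries, 1 was higher and 3 were not called. Over all genes tested, 39.7% were lower and 37.4% higher. Pdgfra, which encodes the sort marker PDGFRa, lay at 13.4 to 15.2 CPM in adult and at 235 to 279 CPM in perinatal libraries. Lepr, a marker of adult marrow stroma, lay at 0.373 to 0.695 against 30.4 to 51.1 CPM. Itgav, which encodes the adult sort marker CD51, went the other way, at 271 to 305 against 47.6 to 51.9 CPM. Of 8 erythroid markers, 6, among them the globins, were at 0 counts in the adult libraries. In bulk samples, fewer cells of a type and less RNA per cell cannot be told apart.

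Promoter sequence is shown for a few immediate early members and for the pair Hspa1a and Hspa1b, whose copies are nearly alike. The members were picked by hand and do not follow the order of the differences between adult and perinatal libraries. Nr4a1, for example, differed more than Zfp36 and is not shown. Each stretch is the 250 bases before the transcription start in RefSeq on GRCm38.p6, written 5′ to 3′ on the strand of the gene. Fos (AP-1 subunit) is at chr12:85473640-85473889 on the plus strand. Fosb (AP-1 subunit) at chr7:19310046-19310295, Dusp1 (a phosphatase that switches off MAP kinases) at chr17:26508473-26508722, Zfp36 (a protein that destabilises mRNAs) at chr7:28379229-28379478, Rhob (a small GTPase) at chr12:8500010-8500259, Hspa1a at chr17:34972157-34972406 and Hspa1b at chr17:34959239-34959488 are on the minus strand. Capitals mark the core of the cAMP response element (CRE), TGACG, the full CRE, TGACGTCA, the TATA box TATAAA, the CArG box bound by serum response factor (CC, then A or T throughout, then GG) and the core of the heat shock element, GAANNTTC or TTCNNGAA.
Fos: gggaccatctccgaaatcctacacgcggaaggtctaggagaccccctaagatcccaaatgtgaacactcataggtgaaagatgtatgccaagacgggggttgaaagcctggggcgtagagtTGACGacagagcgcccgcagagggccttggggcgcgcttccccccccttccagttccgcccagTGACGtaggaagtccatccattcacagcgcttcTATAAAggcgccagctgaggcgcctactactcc
Fosb: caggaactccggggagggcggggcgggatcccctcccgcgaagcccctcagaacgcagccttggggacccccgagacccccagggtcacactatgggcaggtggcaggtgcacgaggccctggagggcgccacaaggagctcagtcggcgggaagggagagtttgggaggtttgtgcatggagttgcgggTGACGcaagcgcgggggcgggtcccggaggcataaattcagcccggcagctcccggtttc
Dusp1: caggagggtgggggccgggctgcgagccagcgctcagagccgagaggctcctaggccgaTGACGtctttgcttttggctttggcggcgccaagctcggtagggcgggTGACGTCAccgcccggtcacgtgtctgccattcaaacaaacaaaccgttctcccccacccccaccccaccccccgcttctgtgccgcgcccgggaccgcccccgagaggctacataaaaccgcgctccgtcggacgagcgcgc
Zfp36: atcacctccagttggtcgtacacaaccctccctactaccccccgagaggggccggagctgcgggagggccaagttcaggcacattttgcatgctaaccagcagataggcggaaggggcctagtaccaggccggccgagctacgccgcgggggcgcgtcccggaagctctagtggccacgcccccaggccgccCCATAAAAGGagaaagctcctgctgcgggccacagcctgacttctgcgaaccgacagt
Rhob: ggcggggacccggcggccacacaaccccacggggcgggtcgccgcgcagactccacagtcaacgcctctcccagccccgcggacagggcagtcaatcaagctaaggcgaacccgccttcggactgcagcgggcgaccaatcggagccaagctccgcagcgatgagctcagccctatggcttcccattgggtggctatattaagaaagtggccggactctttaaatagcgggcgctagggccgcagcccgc
Hspa1a: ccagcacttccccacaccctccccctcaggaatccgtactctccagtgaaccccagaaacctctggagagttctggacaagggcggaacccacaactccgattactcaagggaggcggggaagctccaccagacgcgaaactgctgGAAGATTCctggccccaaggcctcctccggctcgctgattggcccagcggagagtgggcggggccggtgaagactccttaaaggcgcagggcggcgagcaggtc
Hspa1b: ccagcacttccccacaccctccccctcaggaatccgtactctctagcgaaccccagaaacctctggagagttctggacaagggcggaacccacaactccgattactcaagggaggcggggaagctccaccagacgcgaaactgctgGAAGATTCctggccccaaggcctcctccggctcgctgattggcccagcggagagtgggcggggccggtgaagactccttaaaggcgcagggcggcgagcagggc

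In the Fos promoter TGACG lies 129 to 125 and 66 to 62 bases before the start, and TATAAA 33 to 28 bases before it. The full CRE of Dusp1 lies 143 to 136 bases before the start and the CArG box of Zfp36 58 to 49 bases before it. The Rhob stretch holds none of the searched motifs. Hspa1a and Hspa1b share GAAGATTC 104 to 97 bases before the start, and their stretches are equal at 247 of 250 bases.

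RefSeq windows were used for 30 of the 35 members, and Fosl1, Egr3, Myc and Ier2 had none. Egr1 is missing because member windows on chromosome 18, where it lies, were left out of the search. Windows of that chromosome were kept in the share of all windows. Both strands were searched in the 250 bases before each start, and a window with the full CRE also counts for its core. Windows of the same gene can overlap and hold the same match, as for Egr2 and Hsph1, so windows are not independent. The CRE core stood in 17 of the 32 windows of 26 immediate early members (53.1%), against 17.8% of all 32851 windows. It was found in 14 members: Fos, Fosb, Junb, Atf3, Maff, Egr2, all of Nr4a1, Nr4a2 and Nr4a3, Klf2, Klf4, Dusp1, Dusp5 and Btg2. A CArG box stood in 6 windows of 3 members, Egr2, Dusp5 and Zfp36 (18.8% against 1.47% of all windows), and some of these windows overlap. The heat shock element core stood in 4 of the 6 windows of the heat shock genes (66.7%), those of Hspa1a, Hspa1b and Hsph1, against 12.8% of all windows and 9.38% of the immediate early windows. The AP-1 site TGANTCA was in 0 of the 32 windows, against 6.75% of all windows, and TATAAA in 12.5% against 12.4%. A match is a string of letters in this stretch and not a measured site, and letters absent here say nothing about more distant elements.

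Compared per gene length in the authors' TPM values, Fos was the most abundant member in the perinatal group, at 2930 ± 610.4 TPM (SD, n = 3), rank 34 of 16507 genes by mean. Next came Gadd45g, a stress-induced partner of the p38 pathway, at 1781 ± 402 TPM (rank 73), Dusp1 at 1342 ± 132 TPM (rank 118), Ier2 at 1251 ± 181 TPM (rank 129), Hspa1a at 1156 ± 416 TPM (rank 142) and Jun at 1094 ± 532 TPM (rank 153). Fos stood above Gadd45g, and Gadd45g above Dusp1, by more than the larger SD of each pair, while each later pair of neighbours differed by less than the larger SD. The order in the adult group was different: Rhob led at 219 ± 30.7 TPM (rank 616), followed by Gadd45g at 123 ± 10.6 TPM, Jun at 116 ± 16.2 TPM and Klf6 at 112 ± 3.83 TPM, and neighbours among these last 3 differed by less than the larger SD. Fos stood at 8.37 ± 1.59 TPM there, rank 8787.

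The first comparison asked how the genes differ between adult and perinatal cells, which were also sorted by different markers. Of the 31 immediate early genes, 27 were lower and 1 was higher in the adult libraries. Beside these counts, 39.7% of the 13757 genes tested were called lower and 37.4% higher, so most of the transcriptome differed between the groups. The same counts of members passed at an unadjusted p under 0.05, against 40.5% and 38.2% of all genes. The median log2 difference (adult minus perinatal) of the 31 was -3.72, against -0.06 over all genes tested, and single genes ran from -8.91 to 0.86. All 4 heat shock genes were lower, with a median of -2.40. With library totals the median of all genes moved to 0.21 and with upper quartile factors to -0.19, and the immediate early median to -3.46 and -3.86. Summed over the class, immediate early genes made up 0.207%, 0.179% and 0.206% of the counts of adult libraries 1, 2 and 3, and 1.79%, 2.20% and 2.07% of perinatal libraries 1, 2 and 3. Heat shock genes made up 0.0131%, 0.0139% and 0.0136% in the adult and 0.205%, 0.287% and 0.178% in the perinatal libraries.

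**Figure D1:**
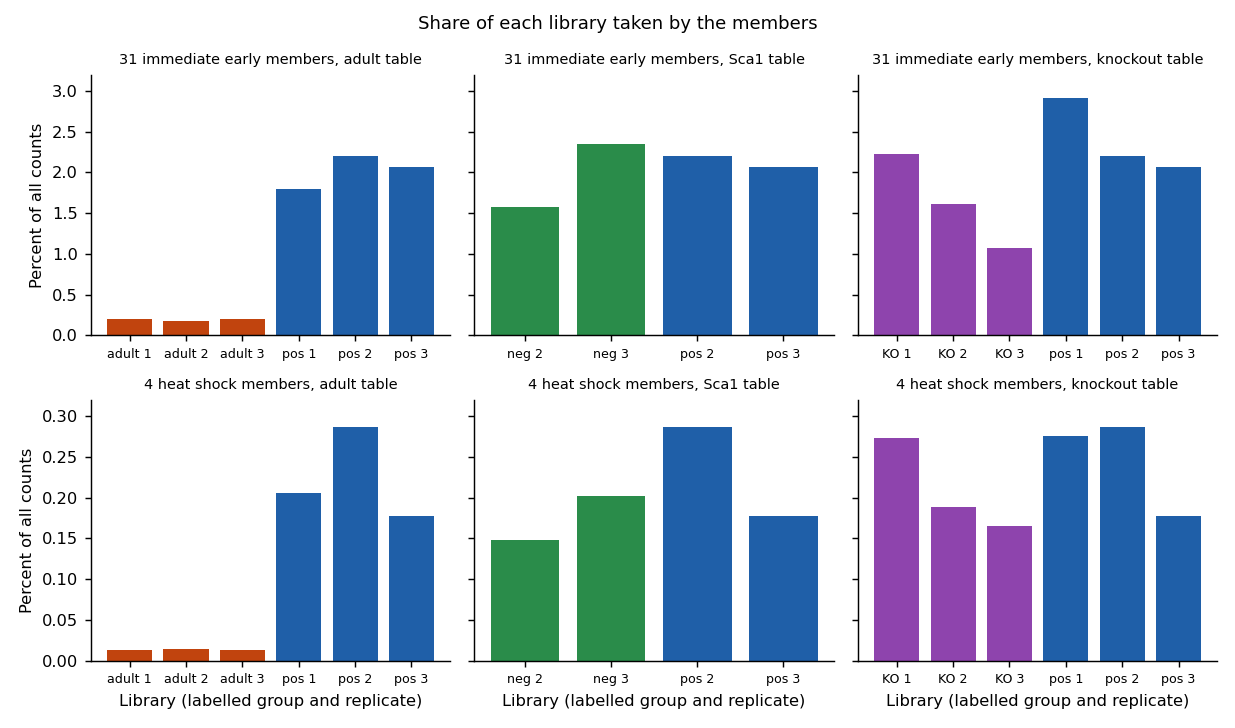
Percent of each library's counts that fell on the 31 immediate early genes and on the 4 heat shock genes, by table, with 1 bar a library and both axes starting at 0. The adult libraries stand at 0.179% to 0.207% for immediate early genes and are the lowest in both classes. Outside the adult group the lowest library is knockout 3 for immediate early genes and the library labelled Sca1-negative 2 for heat shock genes.

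The AP-1 family, dimers of Fos, Jun and ATF type proteins, held 9 members, of which 7 were lower in adult libraries and 2 (Fosl2 and Jund) were not called. Fos (ENSMUSG00000021250, chromosome 12, 85473890 to 85477273, plus strand of GRCm38) lay at 11.8, 9.07 and 9.02 CPM in adult libraries 1, 2 and 3 and at 3353, 4638 and 3988 CPM in perinatal libraries 1, 2 and 3, a log2 difference of -8.91 (SE 0.27, edgeR quasi-likelihood adjusted p = 5.02e-07). Fosb followed it, at 1.39, 0.942 and 1.27 CPM against 363, 383 and 275 CPM (-8.41, SE 0.25). These were the widest differences of the 35 genes, and for neither did the groups overlap. Jun, the main partner of Fos, lay at 248, 209.8 and 241 against 860.2, 2071 and 1810 CPM (-3.03, SE 0.33, adjusted p = 0.000102). Junb, a Jun relative induced by the same stimuli, lay at 117, 103 and 111 against 381, 1005 and 1204 CPM (-3.24, SE 0.41), and perinatal library 1 was the lowest of its group for both Jun genes. Atf3, a stress-induced repressor that pairs with Jun, lay at 76.6, 79.8 and 82.2 against 1148, 581 and 557 CPM (-3.53, SE 0.31), with perinatal library 1 the highest of its group. Maff, a small Maf protein without an activation domain, lay at 35.1, 33 and 34.7 against 74.5, 45.9 and 48.3 CPM (-0.98, SE 0.20). Fosl1, a late member of the Fos family, lay at 19.4, 11.4 and 16.2 against 19.8, 30.6 and 49 CPM (-1.35, SE 0.36, adjusted p = 0.00951), close to touching between the groups. Fosl1 was not called without perinatal libraries 2 and 3 (-0.59, adjusted p = 0.145).

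Fosl2 and Jund are the family members known for steady expression outside acute induction. Fosl2 lay at 143, 95.4 and 139 CPM in adult and 83.8, 105 and 129 CPM in perinatal libraries, a log2 difference of -0.02 (SE 0.23, adjusted p = 0.946). Jund lay at 209, 145 and 232 against 194, 206 and 182 CPM (-0.25, SE 0.20, adjusted p = 0.267). Groups overlapped for both genes, and with library totals in place of TMM factors both values turned positive, at 0.25 and 0.0087.

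The Egr zinc finger factors and the Nr4a orphan nuclear receptors, classic targets of serum response factor and CREB, were lower in all 6 cases. Egr1 lay at 19.5, 13.8 and 24.1 CPM in the adult and 1227, 2076 and 1965 CPM in the perinatal libraries (-6.79, SE 0.36, adjusted p = 3.15e-06), and Egr2 at 6.43, 4.59 and 6.04 against 32.8, 94.3 and 93.4 CPM (-3.96, SE 0.44). Egr3 was rare in both groups, at 0.868, 0.942 and 0.969 against 0.877, 1.73 and 2.9 CPM (-1.25, SE 0.46, edgeR adjusted p = 0.0384), with overlapping groups. Its call was lost with DESeq2 (adjusted p = 0.0565), with library totals (0.0817), with a replicate block (0.0574) and without perinatal libraries 2 and 3 (-0.17, 0.754). Nr4a1, also known as Nur77, lay at 8.28, 5.07 and 8.5 against 443, 891 and 1176 CPM (-7.11, SE 0.48, adjusted p = 9.08e-06). Nr4a2 lay at 1.97, 2.53 and 2.76 against 40.7, 86.5 and 137 CPM, and Nr4a3 at 1.74, 0.589 and 1.12 against 18.3, 21.9 and 28.4 CPM. Per gene length the 3 receptors ran in the same order in both groups, with Nr4a1 at 4.53 ± 1.36 TPM in adult and 506 ± 239 TPM in perinatal libraries and Nr4a3 at 0.375 ± 0.202 TPM and 9.53 ± 4.67 TPM.

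Klf2, Klf4, Klf6 and Myc, factors that couple growth signals to gene expression, were lower in 4 of 4 cases. Klf2, best known from quiescent cells and endothelium, lay at 18, 14.7 and 19.8 CPM against 359, 216 and 188 CPM (-4.12, SE 0.29). Klf4 lay at 64, 31.8 and 47.3 against 453, 309 and 314 CPM (-3.17, SE 0.31) and Klf6 at 245, 273 and 235 against 1361, 1194 and 1028 CPM (-2.52, SE 0.16). For these 3 factors perinatal library 1 was the highest of its group. Myc, a driver of ribosome and metabolic genes, lay at 38.7, 24.3 and 32.9 against 267, 371 and 415 CPM (-3.72, SE 0.26), where perinatal library 1 was the lowest of its group.

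Genes that end the response were lower in 6 of 6 cases. Dusp1 lay at 51.4, 43.7 and 42.1 CPM against 1926, 1914 and 1533 CPM (-5.56, SE 0.19, adjusted p = 6.84e-07), with a narrow spread in both groups. Dusp5, a nuclear phosphatase for ERK, lay at 8.39, 6.42 and 8.13 against 17.7, 40.6 and 44.8 CPM (-2.44, SE 0.36). Dusp2, the third MAP kinase phosphatase of the set, stayed low in both groups, at 2.37, 1.47 and 2.46 against 3.04, 4.68 and 3.46 CPM (-1.09, SE 0.32, adjusted p = 0.0142), and was not called without perinatal library 2 (0.0582) or without libraries 2 and 3 (0.133). Zfp36, which binds AU-rich elements of cytokine mRNAs, lay at 46.4, 34.3 and 45.9 against 806, 1114 and 1171 CPM (-4.88, SE 0.24). Socs3, an inhibitor of cytokine receptor signalling, lay at 51.7, 52.7 and 60.2 against 688, 646 and 673 CPM (-3.88, SE 0.15). Btg2, an antiproliferative partner of the deadenylase complex, lay at 21.9, 29 and 25.1 against 524, 711 and 761 CPM (-4.99, SE 0.22). None of the 6 genes overlapped between the groups.

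Of the other 6 immediate early genes, 4 were lower, 1 was higher and 1 was not called. Ier2, a short nuclear protein, lay at 36.5, 33.5 and 37.2 CPM in adult and 862, 1159 and 992 CPM in perinatal libraries (-5.08, SE 0.18). Ier3, linked to survival of stressed cells, lay at 47.4, 32.6 and 36.2 against 396, 387 and 421 CPM (-3.64, SE 0.19). Gadd45b and Gadd45g, which bind and activate a kinase upstream of p38 and JNK, differed by -5.05 (SE 0.20) and -4.05 (SE 0.23). Gadd45b lay at 17.1, 24 and 16.9 against 465, 572 and 558 CPM, and Gadd45g at 64.4, 83.4 and 74.9 against 1297, 965 and 787 CPM. A single gene, encoding a GTPase of endosomes and of the actin skeleton that is itself induced by stress and growth factors, went the other way. Rhob (ENSMUSG00000054364, chromosome 12, 8497661 to 8500009, minus strand) lay at 327, 280.3 and 332 CPM in adult and 176, 144 and 111 CPM in perinatal libraries (0.86, SE 0.19, edgeR adjusted p = 0.00369), and all 3 adult libraries were above all 3 perinatal ones. Ier5, a target and partner of heat shock factor, lay at 126, 109 and 129.7 against 98.3, 58.1 and 50.8 CPM, without overlap, but was not called (0.55, SE 0.25, adjusted p = 0.0765). Ier5 passed with library totals (0.81, adjusted p = 0.0155), with a replicate block (0.60, 0.0360) and without perinatal library 1 (0.91, 2.83e-04), but without perinatal libraries 2 and 3 the value was 0.0593 (adjusted p = 0.756).

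Groups did not overlap for 28 of the 31 immediate early genes, 26 lower and 2 higher in adult libraries, where 35.7% and 45.3% of all genes tested were lower and higher without overlap. Without perinatal libraries 2 and 3, whose Ly6a level went against their label, 24 genes were lower and 1 was higher, against 37.7% and 36.7% of the 14195 genes tested in that setting, and the median of the class was -3.60. That setting leaves 1 perinatal library, which is assumed to vary like the adult ones, so its calls rest on the spread of the adult group alone. The fold change of 8 members moved by over 1.5-fold there, each toward no difference. On the log2 scale these were Jun (from -3.03 to -2.13), Junb (-3.24 to -2.04), Egr2 (-3.96 to -2.78), Nr4a1 (-7.11 to -6.18), Nr4a2 (-5.47 to -4.33) and Dusp5 (-2.44 to -1.46), which were still called, and Fosl1 and Egr3, which were not. Leaving out each library in turn gave 25 to 27 lower. The macrophage, stromal and erythroid marker levels given above moved with the same groups, and their part in these differences was not tested.

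**Figure D2:**
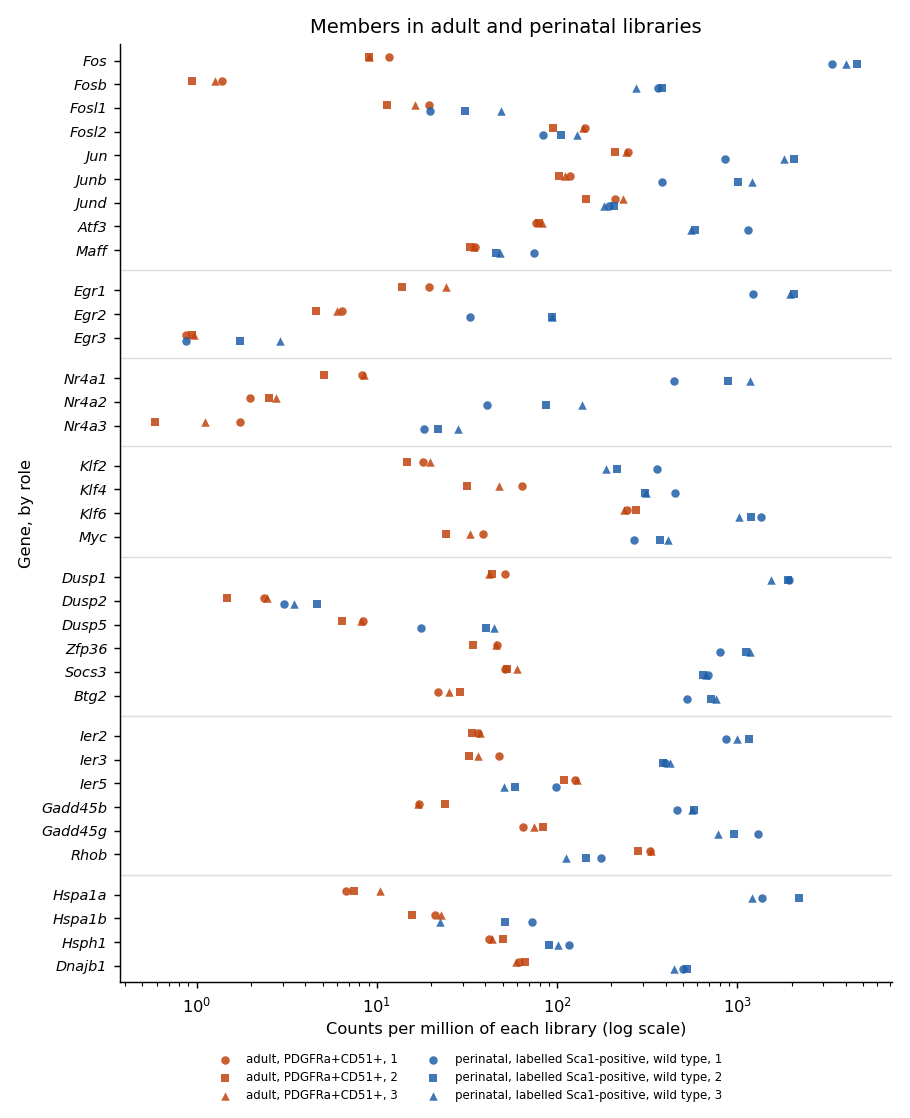
CPM (log axis) of the 35 genes in the 3 adult and 3 perinatal libraries of the age table, with 1 point a library and the genes ordered by role. Fos, Fosb, Egr1, Nr4a1 and Hspa1a show the widest gaps, Fosl2 and Jund overlap, and Rhob and Ier5 lie higher in the adult libraries.

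The 4 heat shock genes were lower in adult libraries by very different amounts. Hspa1a, the inducible HSP70 chaperone, lay at 6.77, 7.48 and 10.4 CPM in adult and 1365, 2206 and 1207 CPM in perinatal libraries (-7.87, SE 0.36, edgeR adjusted p = 1.81e-06). Its neighbour Hspa1b, which encodes a nearly identical protein, lay at 21, 15.7 and 22.6 against 72.7, 51.6 and 22.3 CPM (-1.57, SE 0.40, adjusted p = 0.00763), with overlapping groups. Hspa1b thus held 75.6%, 67.8% and 68.6% of the counts of the pair in adult libraries and 5.06%, 2.29% and 1.81% in perinatal ones. The copies share 1716 words of 50 bases in their transcripts, 58.8% of those of Hspa1a and 62.3% of those of Hspa1b, so reads could be split between them and each gene's own level is uncertain. Summed as 1 feature, an alternative added after the data were seen, the pair differed by -6.14 (SE 0.32). Dnajb1, the HSP40 partner of HSP70, lay at 61.6, 66.1 and 59.3 against 497, 523 and 445 CPM (-3.24, SE 0.13). Hsph1, the HSP110 exchange factor, lay at 41.7, 49.95 and 43.5 against 116, 89.9 and 102 CPM (-1.46, SE 0.14, adjusted p = 4.82e-05), the smallest difference of the 4 genes in this fit.

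Related genes outside the set were read from 4 further lists, beside the 37.4% of all genes called higher and 39.7% called lower in this comparison. Of 33 other induced genes, 23 were lower and 4 higher in adult libraries, led by the NF-kB inhibitor Nfkbia (68.0 ± 4.93 against 2183 ± 246 CPM, SD, n = 3 each), Csrnp1 (7.25 ± 1.02 against 219.6 ± 19.2 CPM) and Nfkbiz (23.4 ± 0.452 against 243 ± 23.8 CPM). Of the upstream kinases and factors, 14 of 20 were higher and 2 lower, among them Mapk14 encoding p38 (166 ± 4.26 against 31.8 ± 5.74 CPM), Mapk3 encoding ERK1 (214 ± 3.36 against 59.3 ± 6.22 CPM) and the ERK-activated kinase Rps6ka1 (124 ± 5.28 against 8.47 ± 2.91 CPM). Of 23 other chaperones, 15 were lower and 4 higher. Dnaja1 was lower (106 ± 13.7 against 334 ± 14.01 CPM), while Hspa4 (291 ± 17.6 against 71.6 ± 6.40 CPM) and mitochondrial Hspa9 (413 ± 15.4 against 134 ± 13.4 CPM) were higher. Of 15 genes of the unfolded protein response in the endoplasmic reticulum, 9 were lower and 2 higher, with Creld2 and Pdia6 lower (-1.64 and -1.50 on the log2 scale) and Sdf2l1 higher (1.83).

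The second comparison set the 2 perinatal libraries labelled Sca1-negative, numbers 2 and 3, against the libraries labelled Sca1-positive with the same numbers. The labelled direction runs against the Ly6a level, which was higher in the libraries labelled negative. Of the 31 immediate early genes, 1 was higher and 0 were lower in the libraries labelled Sca1-negative, where 1.63% and 2.79% of the 13529 genes tested were called higher and lower. At an unadjusted p under 0.05, 4 members were higher and 5 lower (8.65% and 10.3% of all genes), and DESeq2 called 4 higher and 3 lower. The median log2 difference (labelled negative minus labelled positive) was -0.03, against 0.01 over all genes, and single genes ran from -1.39 to 1.06. Of the 4 heat shock genes 0 were called, with 1 higher (Hsph1) at an unadjusted p under 0.05 and 0 called by DESeq2.

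Atf3 (ENSMUSG00000026628, chromosome 1, 191170296 to 191218039, minus strand) was the gene called, and it lay at 1147 and 1145 CPM in the libraries labelled negative 2 and 3 and at 581 and 557 CPM in those labelled positive (1.04, SE 0.18, edgeR adjusted p = 0.0304). Each group's pair of values was close together. Without either library labelled positive the call was lost (adjusted p = 0.380 and 0.384), although the values, 1.05 and 1.03, stayed near the main one. Atf3 also lay at 1148 CPM in perinatal library 1 of the age table, at 1074 CPM in control 1 and at 1076, 1003 and 1015 CPM in the knockouts. Of the libraries outside the adult group, then, those numbered 2 and 3 and labelled Sca1-positive were the lower ones for Atf3. In the Sca1 and knockout tables, which list Ly6a, they also had the lower Ly6a level. In the Sca1 table the 12 cartilage markers summed to 6888 and 8037 CPM in these libraries against 685 and 812 CPM in those labelled negative, with 12 of 12 lower in the latter. The fibroblast progenitor markers summed to 1504 and 1834 against 7475 and 7111 CPM, and the part of either list in the result was not tested.

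Several genes differed without overlap but missed the threshold. Ier5 lay at 129 and 91.9 CPM in the libraries labelled negative and 58.1 and 50.8 CPM in those labelled positive (1.06, SE 0.23, adjusted p = 0.0608). Klf2 lay at 296 and 343 against 216 and 188 CPM (0.69, SE 0.19, adjusted p = 0.102) and Klf4 at 472 and 484 against 309 and 314 CPM (0.65, SE 0.18, adjusted p = 0.106). These genes, with Atf3, were the 4 higher at an unadjusted p under 0.05. On the lower side, Egr2 lay at 31.2 and 54.3 against 94.3 and 93.4 CPM (-1.11, SE 0.27, adjusted p = 0.0786) and Nr4a2 at 49.1 and 55.7 against 86.5 and 137 CPM (-1.07, SE 0.26, adjusted p = 0.0837). Dusp5 (-0.82, adjusted p = 0.104), Fosl1 (-0.95, adjusted p = 0.145) and Egr3 (-1.39, adjusted p = 0.210) completed the 5 lower ones. DESeq2 called Atf3, Ier5, Klf2 and Klf4 higher and Egr2, Nr4a2 and Fosl1 lower. In all, 8 immediate early genes were higher and 9 lower without overlap, against 22.2% and 27.6% of all genes tested.

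For many abundant genes the libraries labelled negative differed from each other. Fos lay at 2441 and 4516 CPM in libraries 2 and 3 labelled negative and at 4640 and 3990 CPM in those labelled positive, Jun at 655 and 1714 against 2072 and 1810 CPM, and Junb at 363 and 1350 against 1005 and 1204 CPM. Egr1 lay at 924 and 1994 against 2077 and 1966 CPM and Nr4a1 at 393 and 984 against 892 and 1176 CPM. In each of these 5 genes the library labelled negative 2 was the lowest of the 4, and the other lay between or above the libraries labelled positive except for Jun. Library 2 was the lowest and library 3 the highest of the 4 for Zfp36, at 684 and 1625 against 1115 and 1172 CPM, for Socs3, at 624 and 949.7 against 646 and 673 CPM, and for Dusp1, at 1363 and 1951 against 1915 and 1533 CPM. Ier2 lay at 695 and 973 against 1160 and 993 CPM and Btg2 at 496 and 763 against 711 and 761 CPM. Across the class, 19 of 31 genes were lowest in library 2 and 12 in library 3. The ratio between these libraries was over 2 for 6 genes and widest, at 3.72, for Junb. Such counts were not taken over all genes. Without library 3 labelled negative, 10 immediate early genes passed as lower and 7 as higher, among them Fos (-0.76, adjusted p = 7.98e-04) and Jun (-1.50, 1.20e-06), and without library 2 the counts were 2 and 6. Over all genes tested, 18.4% were lower and 16.3% higher without library 3, and 8.24% and 7.99% without library 2. With those settings Zfp36 turned from -0.68 (adjusted p = 0.00196) to 0.51 (0.0267). In both settings the remaining library labelled negative is assumed to vary like the other group.

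The remaining abundant genes were not called. Fosb lay at 389.7 and 289.8 against 383 and 275 CPM, Fosl2 at 116 and 108 against 105 and 129 CPM and Jund at 178 and 257 against 206 and 182 CPM. Maff lay at 105 and 45.9 against 45.9 and 48.4 CPM, with the library labelled negative 2 apart from the other 3. Klf6 lay at 1540 and 1247 against 1195 and 1028 CPM and Myc at 309 and 347 against 371 and 415 CPM. Both stood apart without overlap, Klf6 higher and Myc lower in the libraries labelled negative, and neither was called (adjusted p = 0.427 and 0.573). Ier3 lay at 469.8 and 423 against 387 and 421 CPM, Gadd45b at 486 and 456 against 572 and 558 CPM and Gadd45g at 1128 and 1042 against 965 and 787 CPM. Rhob, the gene that was higher in the adult libraries, lay at 154 and 159 against 144 and 111 CPM here (0.33, SE 0.19, edgeR adjusted p = 0.434). Nr4a3, Dusp2, Dusp5, Fosl1 and Egr3 stayed under a mean of 50 CPM in both groups.

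Among the heat shock genes, Hspa1a lay at 795 and 1332 CPM in the libraries labelled negative and 2206 and 1207 CPM in those labelled positive (-0.65, SE 0.35, adjusted p = 0.393). Dnajb1 lay at 486 and 513 against 523 and 446 CPM, level between the groups (0.08, SE 0.18). Hsph1 lay at 157 and 134 against 90.0 and 102 CPM without overlap (0.63, SE 0.20, adjusted p = 0.149), and Hspa1b stayed under 50 CPM on average, with 4.59% and 2.97% of the pair's counts against 2.29% and 1.81%. Of the related lists, 3 of 32 induced genes were lower (Dusp6 -1.37, Klf10 -1.02 and Ccn2 -1.13, edgeR adjusted p = 0.0148, 0.0377 and 0.0388) and 0 higher. Of the 20 upstream genes, Rps6ka1 was lower (-1.75, adjusted p = 0.0308), of the 23 chaperones, Hspb8 was higher (60.3 ± 0.863 against 22.7 ± 0.659 CPM, SD, n = 2), and 0 of 15 endoplasmic reticulum genes were called, with 1 higher and 1 lower at an unadjusted p under 0.05. The most abundant of the latter were Hspa5 (1441 ± 145 against 1606 ± 4.85 CPM) and Pdia6 (729 ± 14.4 against 786 ± 3.31 CPM).

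**Figure D3:**
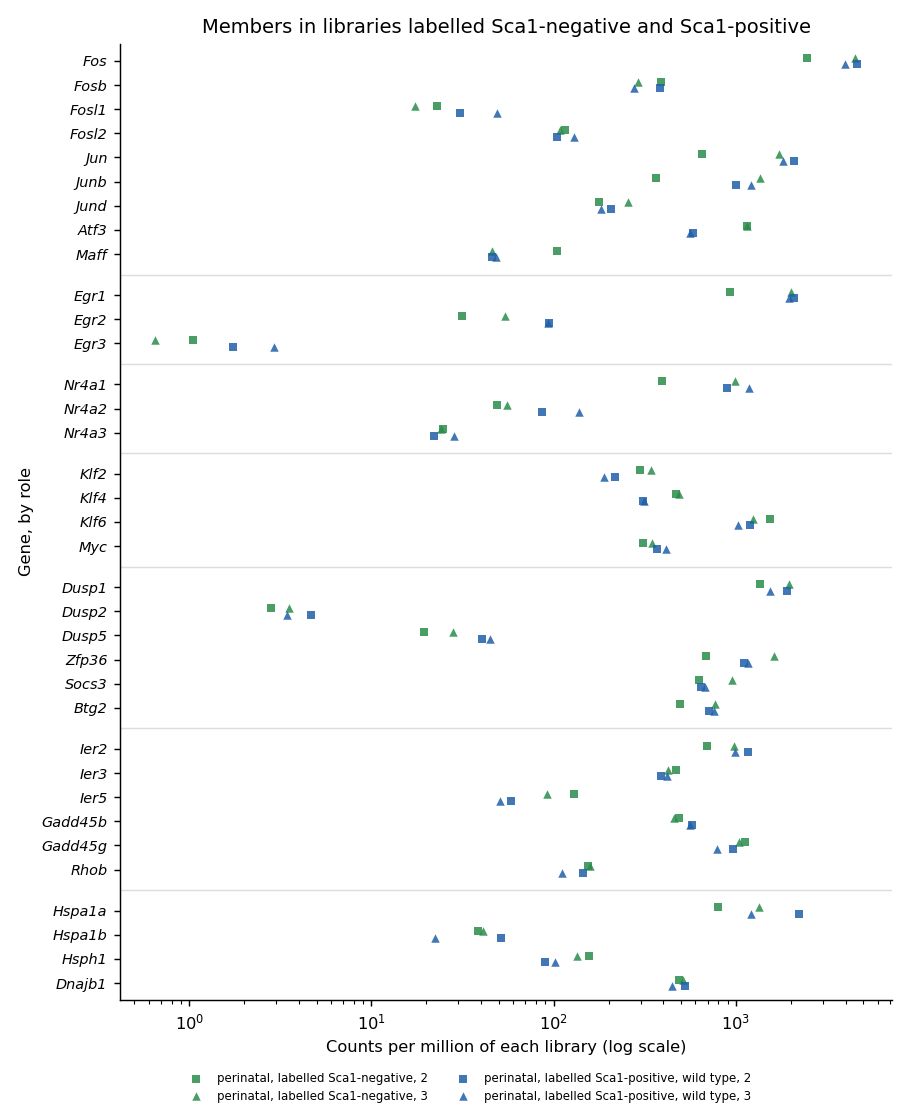
CPM (log axis) of the 35 genes in the libraries labelled Sca1-negative 2 and 3 and Sca1-positive 2 and 3, with 1 point a library. The libraries labelled negative part from each other for Jun, Junb, Egr1 and Nr4a1, and lie together above the others for Atf3.

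The third comparison asked whether the genes differ after deletion of Igf1r, a receptor whose signal runs through ERK and AKT. Of the 31 immediate early genes, 0 were called, and of the 4 heat shock genes 0. Over all 13590 genes tested, edgeR called 0 higher (0%) and 5 lower (0.0368%). At an unadjusted p under 0.05, 2 immediate early genes were higher (Maff and Ier5) and 7 lower (Fos, Jun, Egr1, Egr2, Nr4a1, Nr4a2 and Dusp5), against 12.1% and 9.68% of all genes. DESeq2 called Ier5 higher and Jun, Egr2 and Dusp5 lower (adjusted p = 0.0493, 0.0494, 0.0286 and 0.0346) among 472 higher and 527 lower genes in all. The median log2 difference (knockout minus control) was -0.44 for the immediate early class, against -0.03 over all genes, with single genes between -1.44 and 1.08. Without overlap between the groups, 9 of the 31 were lower and 4 higher, against 12.6% and 15.4% of all genes. The class made up 2.23%, 1.61% and 1.08% of the counts in knockout libraries 1, 2 and 3 and 2.91%, 2.21% and 2.07% in controls 1, 2 and 3.

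The knockout libraries lay far apart from each other. Of 30 immediate early genes above the floor in each knockout library, 13 had a ratio over 2 between the highest and the lowest knockout library, against 5 of 31 in the controls. Library 1 was the highest of the knockouts for 22 genes and library 3 the lowest for 25. These counts were not taken over all genes, so the spread is not shown to be particular to the members. Junb spanned the widest range, 13.2-fold, at 1281, 351 and 96.9 CPM in knockouts 1, 2 and 3 and 1868, 1006 and 1205 CPM in controls 1, 2 and 3 (-1.29, SE 0.76, adjusted p = 0.316). Jun lay at 1447, 681 and 267 against 2532, 2072 and 1811 CPM (-1.44, SE 0.51, adjusted p = 0.187), and Fos at 3711, 2463 and 1389 against 5665, 4641 and 3992 CPM (-0.92, SE 0.35, adjusted p = 0.200). For Fos and Jun every knockout library was below every control. Egr1 lay at 1841, 985 and 626 against 2826, 2077 and 1967 CPM (-1.003, SE 0.39, adjusted p = 0.201) and Egr2 at 58.9, 33.3 and 29.4 against 64.5, 94.4 and 93.5 CPM (-1.03, SE 0.29, adjusted p = 0.177). Nr4a1 lay at 879, 410.1 and 203 against 1319, 892 and 1177 CPM (-1.20, SE 0.47, adjusted p = 0.204) and Nr4a2 at 53, 48.1 and 47.4 against 60.4, 86.5 and 137 CPM (-0.89, SE 0.30, adjusted p = 0.184). None of these 4 genes overlapped between the groups. Dusp5 was lower in all 3 knockouts but rarer, with a mean under 50 CPM (-1.19, SE 0.35, adjusted p = 0.177).

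Leaving out knockout library 1 took 9 immediate early genes past the threshold as lower, among 1471 lower and 1532 higher of 13952 genes tested. The 9 were Fos (-1.250, edgeR adjusted p = 0.0407), Jun (-2.12, 0.0247), Junb (-2.57, 0.0297), Egr1 (-1.45, 0.0288), Egr2 (-1.34, 0.0228), Nr4a1 (-1.83, 0.0251), Dusp2 (-1.43, 0.0478), Dusp5 (-1.55, 0.0246) and Ier2 (-1.40, 0.0361). Without controls 2 and 3, the libraries with low Ly6a, 0 members and 0 genes in all were called, with control 1 assumed to vary like the knockouts. In that setting Fos (-1.26), Jun (-1.77), Junb (-1.82), Egr1 (-1.39) and Nr4a1 (-1.51) lay further from 0 (adjusted p = 0.586 for each), and Egr2 (-0.75, adjusted p = 0.586), Nr4a2 (-0.35, 0.687), Dusp5 (-0.88, 0.586) and Ier5 (0.48, 0.641) lay nearer to 0. Jund moved from -0.51 to -1.11, Gadd45g from -0.0127 to -0.61 and Egr3 from -1.33 to -0.26, and Atf3, Klf2 and Klf4 turned negative (-0.12, -0.50 and -0.43). With a replicate block 0 members were called and the 5 genes in all became 0.

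Ier5 and Maff stood on the higher side. Ier5 lay at 132, 143 and 159 CPM in the knockouts and 99.6, 58.2 and 50.8 CPM in the controls (1.07, SE 0.33, adjusted p = 0.181), and passed without control 1 (1.501, adjusted p = 0.0434), while without controls 2 and 3 the value fell to 0.48 (adjusted p = 0.641). Maff lay at 72.1, 58.6 and 94.2 against 36.6, 45.9 and 48.4 CPM (0.83, SE 0.26, adjusted p = 0.181). Both were higher in 3 of 3 knockouts. Atf3 lay at 1076, 1003 and 1015 against 1074, 581 and 557 CPM (0.49, SE 0.33, adjusted p = 0.362), where control 1 was level with the knockouts. Fosl2 lay at 140.1, 133 and 167 against 93.5, 105 and 129 CPM, again without overlap, and Fosb at 308, 299.9 and 282 against 307, 383 and 275 CPM, with overlap. Jund lay at 273, 175 and 79.3 against 354, 206 and 182 CPM, with knockout 3 the lowest of all 6.

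Of the factors Klf2, Klf4, Klf6 and Myc, 0 were called. Klf2 lay at 291, 275 and 357 against 419, 216 and 188 CPM, Klf4 at 472, 502 and 443 against 609, 309 and 314 CPM and Klf6 at 1218, 1612 and 1209 against 1126, 1195 and 1029 CPM. For Klf2 and Klf4 control 1 was the highest of all 6 libraries, while Klf6 was higher in 3 of 3 knockouts. Myc lay at 366, 356 and 201 against 473, 371 and 416 CPM (-0.44, SE 0.28, adjusted p = 0.342), lower in 3 of 3 knockouts. Of the genes that end the response, Dusp1 lay at 1743, 1792 and 719 against 2113, 1915 and 1534 CPM, Zfp36 at 1467, 820.5 and 566 against 1830, 1115 and 1172 CPM and Socs3 at 1001, 512 and 382 against 1138, 646 and 674 CPM. In these 3 genes knockout 3 was the lowest library. Btg2 lay at 677, 575 and 349 against 756, 711 and 761 CPM, without overlap, and not called (adjusted p = 0.310). Ier2 lay at 1133, 573 and 294 against 1407, 1160 and 993 CPM (-0.85, SE 0.43, adjusted p = 0.271) and Ier3 at 613, 427 and 407 against 447, 387 and 421 CPM. Gadd45b lay at 591, 351 and 335 against 611, 572 and 558 CPM, Gadd45g at 1163, 1313 and 843 against 1603, 966 and 787 CPM and Rhob at 183, 127 and 122 against 217, 144 and 112 CPM. These groups overlapped. Nr4a3, Dusp2, Dusp5, Fosl1 and Egr3 stayed under a mean of 50 CPM.

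**Figure D4:**
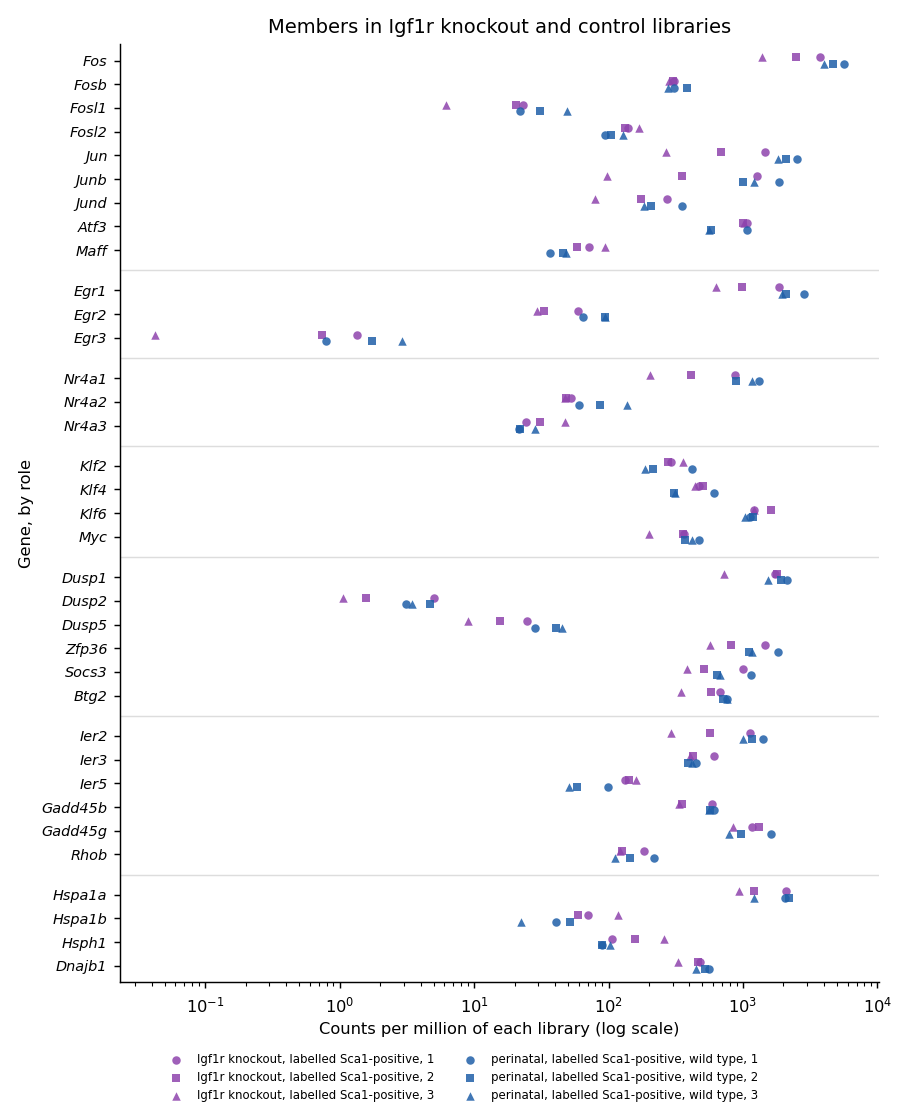
CPM (log axis) of the 35 genes in the 3 Igf1r knockout and 3 control libraries, with 1 point a library. The knockouts spread widely for Junb and Jun. All 3 knockouts lie above all 3 controls for Ier5, Maff, Fosl2, Klf6, Hspa1b and Hsph1. They lie below all 3 controls for 9 immediate early genes.

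The heat shock genes were split in direction. Hsph1 lay at 107, 157 and 260.0 CPM in knockouts 1, 2 and 3 and 89, 90.0 and 102 CPM in controls 1, 2 and 3 (0.96, SE 0.36, edgeR adjusted p = 0.199), higher in 3 of 3, and passed without knockout 1 (1.245, adjusted p = 0.0288). Hspa1b lay at 70.0, 59.4 and 118 against 40.8, 51.6 and 22.4 CPM (1.16, SE 0.40, adjusted p = 0.184), also higher in 3 of 3, and held 3.26%, 4.69% and 11.2% of the pair's counts against 1.94%, 2.29% and 1.82%. Hspa1a lay at 2077, 1208 and 939.6 against 2061, 2207 and 1207 CPM (-0.37, SE 0.35, adjusted p = 0.512) and Dnajb1 at 481, 463 and 330.4 against 562, 523 and 446 CPM (-0.25, SE 0.24). The pair summed gave -0.31 (SE 0.34), and 2 of the 4 genes, Hspa1b and Hsph1, were higher at an unadjusted p under 0.05.

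Of the related lists, 0 genes were called in the knockout comparison. At an unadjusted p under 0.05, where 12.1% of all genes were higher and 9.68% lower, 3 of 32 induced genes were higher and 6 lower, 3 of 20 upstream genes higher and 1 lower, 6 of 23 chaperones higher and 2 lower, and 2 of 15 endoplasmic reticulum genes higher and 1 lower. The most abundant chaperones were Hspa8 (3933 ± 529 against 3251 ± 213 CPM, SD, n = 3) and Hsp90ab1 (2760 ± 312 against 2259 ± 176 CPM), and the most abundant endoplasmic reticulum genes Hspa5 (1524 ± 347 against 1475 ± 228 CPM) and Hsp90b1 (959 ± 359 against 558 ± 90.9 CPM). Of the induced genes, Nfkbia lay at 2323 ± 677 against 2468 ± 735 CPM and Ccn1, a matrix signalling protein, at 1025 ± 447 against 1782 ± 108 CPM, and of the upstream genes Map2k2 at 97.4 ± 21.9 against 142 ± 43.4 CPM. The cartilage markers summed to 471 to 812 CPM in the knockouts and to 970, 6891 and 8041 CPM in controls 1, 2 and 3, with 12 of 12 lower at an unadjusted p under 0.05 and 0 called. The erythroid markers summed to 157 to 248 against 1244 to 1666 CPM, with 4 of 8 called lower. The part of these in the members' values was not tested.

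**Figure D5:**
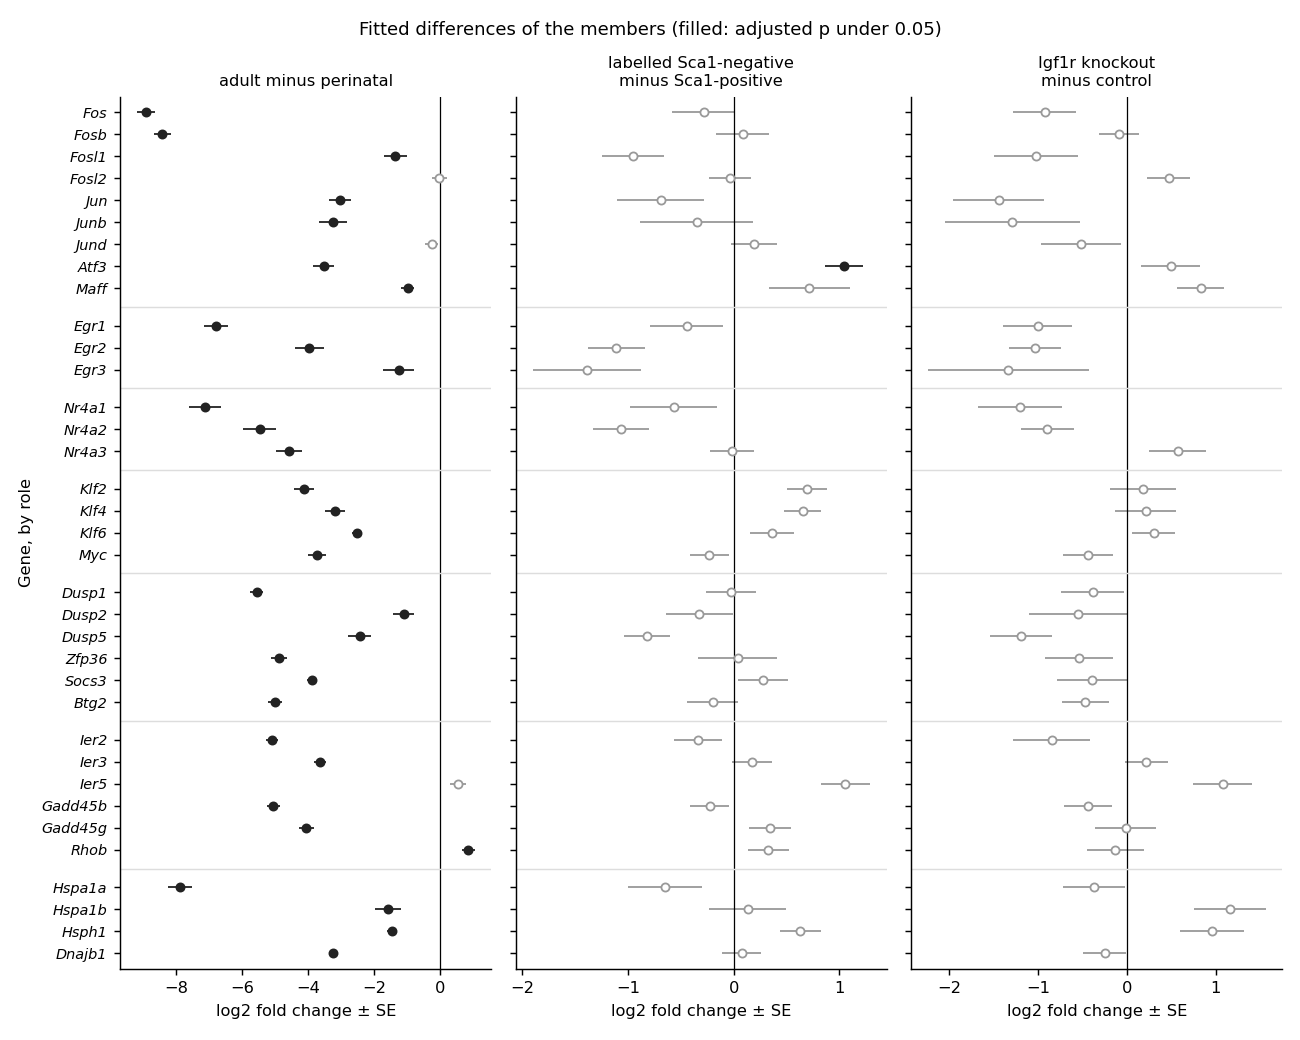
Log2 difference of each of the 35 genes in the 3 comparisons, in edgeR with TMM factors, with bars of 1 standard error and filled points for adjusted p under 0.05. Each panel has its own axis range. Points for adult minus perinatal run down to -8.91 for Fos, while the other comparisons stay between -1.44 and 1.16.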

How the data were processed

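The authors deposited 3 tables, with raw counts per gene and library, for adult against perinatal, Sca1 and Igf1r knockout libraries. The submitters' processing notes name Trimmomatic 0.32, the build mm10 and DESeq2. No aligner, counter, annotation or strand setting is given in the sources used here. The authors' TPM values of the age and Sca1 tables served to compare levels between genes. Columns headed TPM in the deposited knockout table are on a log2 scale and were not used, nor were the authors' own log2 fold changes and adjusted p-values.

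Each table was fitted by itself with edgeR 4.0.16 in R 4.3.3 (filterByExpr, TMM factors, robust glmQLFit, glmQLFTest), with group as the single term. P-values were Benjamini-Hochberg adjusted over all genes tested, and a gene was called under 0.05. SE is the log2 difference over the square root of F. CPM of a library is counts over its total in the table, unscaled. The fitting steps were run on simulated counts with the same setting of spread for every gene. That run does not cover genes that spread as widely as among the knockouts. Alternatives were DESeq2 1.42.0, other factors, no filter, a replicate block and left-out libraries. Only counting error is covered by the floor of 3 counts.

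The labels state no pairing, so the main fits ignore library numbers, and the replicate block is an alternative alone. Same-numbered knockout and control libraries deviated together (r = 0.268, 0.114 and 0.103 over 13590 genes). In the Sca1 comparison r was 0.348 for same-numbered libraries and -0.348 for the others. With 2 libraries in each group these values mirror each other by construction. Knockout 3 correlated more with control 2 (0.304), and the column of control 1, numbered 1 in its sample title, carries a 5 in its header, so the pairing is uncertain. Coordinates are from GENCODE M21 and promoters from RefSeq. The members and lists were chosen with earlier results of these data known. All 35 members are accounted for in each table, with single-library values for those with a mean of at least 50 CPM in a group or called. Of each related list up to 3 called genes with the smallest adjusted p are named, or the 2 most abundant. A gene that falls under this rule is not reported here.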

Additional observations from a re-analysis of the deposited data

How the results depend on the processing

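In the age comparison, every alternative run kept 24 to 27 immediate early genes lower and all 4 heat shock genes lower. The count higher, 1, became 2 with library totals, with a replicate block and without perinatal library 1 (range 1 to 2 over left-out libraries). Fosl2 turned positive with DESeq2 (0.0222), library totals (0.25), no filter on low counts (0.0401) and without perinatal libraries 2 and 3 (0.34), and ran from -0.14 to 0.20 over left-out libraries. Jund turned positive with library totals (0.0087). The causes were not tested.

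In the Sca1 comparison, immediate early calls were 4 higher and 3 lower with DESeq2 and 3 higher and 4 lower with a replicate block, which shares only a number here. Over left-out libraries they ran from 0 to 7 higher and from 0 to 10 lower, and heat shock calls from 0 to 1 higher. Calls over all genes, 220 higher and 377 lower, became 424 and 588 with DESeq2, 577 and 792 with the block, 1111 and 1146 without library 2 labelled negative and 2268 and 2567 without library 3, and 143 were higher without library 2 labelled positive. Signs turned for Zfp36 with upper quartile factors (-0.0068) and the block (-0.0827). Over left-out libraries, log2 differences ran from -0.68 to 0.51 for Zfp36, from -0.76 to 0.075 for Fos, from -0.17 to 0.32 for Fosb, from -0.20 to 0.15 for Fosl2, from -1.54 to 0.30 for Junb, from -0.0621 to 0.41 for Jund, from -0.0302 to 1.21 for Maff, from -0.21 to 0.20 for Nr4a3, from -0.27 to 0.19 for Dusp1, from -0.0159 to 0.53 for Socs3, from -0.51 to 0.0603 for Btg2, from -0.34 to 0.83 for Hspa1b and from -0.0160 to 0.17 for Dnajb1. The causes were not tested.

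In the knockout comparison, DESeq2 called 1 immediate early gene higher and 3 lower, and 472 and 527 genes in all. Over left-out libraries the class ran from 0 to 1 higher and from 0 to 9 lower, and heat shock genes from 0 to 1 higher. Genes in all were 1532 higher and 1471 lower without knockout 1 and 95 and 211 without control 1, and 0 were lower without each other library in turn, without both controls 2 and 3, or with the replicate block. That block turned Gadd45g to 0.0597 and changed no member's call. Without controls 2 and 3, Atf3 (-0.12), Klf2 (-0.50) and Klf4 (-0.43) turned negative. Over left-out libraries, Fosb ran from -0.20 to 0.0165, Gadd45g from -0.23 to 0.41, Klf2 from -0.0494 to 0.70 and Rhob from -0.34 to 0.24. The causes were not tested. Depth limits Egr3 most, with 1 count in knockout library 3. The summed Hspa1a and Hspa1b, chosen after seeing the data, were lower in adult libraries (-6.14) and not called in the Sca1 (-0.63, edgeR adjusted p = 0.404) or knockout comparison (-0.31, 0.564).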

Other observations

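The columns named by the labels for Sca1-positive wild-type sample 1 hold different libraries. Immediate early genes made up 1.79% of counts in the column of the age table and 2.91% in that of the knockout table. Fos lay at 3353 and 5665 CPM, Jun at 860.2 and 2532 CPM, Junb at 381 and 1868 CPM, and Nr4a1 at 443 and 1319 CPM, each higher in the library of the knockout table. Atf3, in contrast, lay at 1148 and 1074 CPM, Fosb at 363 and 307 CPM and Klf6 at 1361 and 1126 CPM. The tables were made separately, and no test compares single libraries.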
